A study of Mus musculus with 24 samples.

Results

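The genes described here are 9 of the 55359 in the count table: Pdgfrb (ENSMUSG00000024620), Rgs5, Vtn, Dcn (ENSMUSG00000019929), Lum, Bgn (ENSMUSG00000031375), Postn (ENSMUSG00000027750), Gata6 (ENSMUSG00000005836) and Ndnf (ENSMUSG00000049001). Of these, 7 were listed as identity genes of fibroblasts or pericytes, and Gata6 and Ndnf had stood out as lower with 10 mM ethanol in an earlier look at the same wells. Whether measured values also entered the choice of the 7 is not recorded. The wells held oligodendrocytes, the myelin-forming cells of the brain, isolated from the cortices of C57BL6/J mouse pups at postnatal days 5 to 7 with magnetic beads against O4, a surface antigen of immature oligodendrocytes. The cells were differentiated for 3 days, mainly with triiodothyronine (T3), and then cultured for 3 days with or without ethanol. Experiment 1 (batch 1 in the labels) had 6 wells with 30 mM ethanol and 6 control wells with 0 mM, and experiment 2 (batch 2) had 6 wells with 10 mM and 6 control wells with 0 mM. All 4 groups carried the same strain, sort and differentiation, and no genetic change is given. Control plates stood in a separate incubator, so the effect of ethanol cannot be told apart from that of the incubator. Each dose was used in 1 experiment, which leaves dose and experiment impossible to tell apart. The labels number the wells as biological replicates without saying that they came from separate animals or isolations, so p-values measure the spread between wells, which may be technical.

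Pericytes wrap the small blood vessels of the brain and are held there by platelet-derived growth factor from endothelial cells, which acts on the receptor encoded by Pdgfrb. Fibroblasts lie in the meninges and around larger vessels and secrete collagens together with small leucine-rich proteoglycans, which bind and space collagen fibrils. Decorin (Dcn), lumican (Lum) and biglycan (Bgn) belong to that proteoglycan family, and periostin (Postn) is a matrix protein that binds integrins. Gata6 encodes a zinc-finger transcription factor that binds GATA motifs and is known from endoderm, heart and some stromal cells, and Ndnf encodes a secreted glycoprotein with fibronectin type III domains.

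RNA was measured by 3′ tag sequencing. It reads each transcript close to its 3′ end, which leaves the counts of long and short genes comparable. Levels are given as CPM, counts scaled to the library size with TMM factors over the 24 wells. Total counts ran from 1184609 to 1817028 per well, and 3 counts, taken as the floor, were worth 1.71 to 2.56 CPM. No pair of wells within a group agreed within sampling noise. Floors cover counting error only, because reads copied by PCR are not separate molecules. The label of the cultures was checked against 8 oligodendrocyte markers, which all had counts and summed to between 6877 and 16181 CPM per well, whereas the 9 genes summed to between 142 and 243 CPM. Markers of other glia were present too. The 7 astrocyte genes summed to between 3738 and 6598 CPM per well. The 14 microglia genes summed to between 209 and 352 CPM in experiment 1 and between 2430 and 3155 CPM in experiment 2. The check therefore does not show cultures of oligodendrocytes alone. Among 17 pericyte genes, Higd1b, a gene that marks brain pericytes, was at 0 in 22 of 24 wells, while Kcnj8, a potassium channel subunit of pericytes and smooth muscle, had mean levels from 8.30 to 10.0 CPM in the 4 groups. Among 12 endothelial genes, the tight junction gene Cldn5 was at 0 in 23 of 24 wells, while Pecam1 had mean levels from 20.0 to 22.5 CPM. In bulk samples such as these, fewer cells of a type and less RNA per cell cannot be told apart.

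The promoters of 3 of the genes are shown: those of Postn and Bgn, which were lower with 30 mM ethanol, and of Rgs5, which did not pass the test. They are from the RefSeq promoter table for GRCm38.p6, which runs from 250 bases before to 50 bases after each start site and held entries for 4 of the 9 genes (Postn, Bgn, Rgs5 and Vtn). The table was searched on both strands for the GATA core GATAA, part of the motif that the factor family of Gata6 binds, which reads TTATC on the minus strand. The TATA box letters searched were TATAAA. Matches are in capitals, and all 3 promoters lie on the plus strand, written 5′ to 3′.
Postn, chr3:54360857-54361156: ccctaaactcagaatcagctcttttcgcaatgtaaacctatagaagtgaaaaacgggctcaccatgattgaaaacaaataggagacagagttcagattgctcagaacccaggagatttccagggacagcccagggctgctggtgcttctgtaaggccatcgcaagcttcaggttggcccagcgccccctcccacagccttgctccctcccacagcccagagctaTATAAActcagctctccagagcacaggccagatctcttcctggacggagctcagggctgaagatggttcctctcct
Bgn, chrX:73483351-73483650: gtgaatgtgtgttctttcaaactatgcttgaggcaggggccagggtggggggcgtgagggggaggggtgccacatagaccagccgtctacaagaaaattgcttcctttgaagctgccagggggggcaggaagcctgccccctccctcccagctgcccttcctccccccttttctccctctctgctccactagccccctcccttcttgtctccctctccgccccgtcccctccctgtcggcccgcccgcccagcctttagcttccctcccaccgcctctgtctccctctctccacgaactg
Rgs5, chr1:169655251-169655550: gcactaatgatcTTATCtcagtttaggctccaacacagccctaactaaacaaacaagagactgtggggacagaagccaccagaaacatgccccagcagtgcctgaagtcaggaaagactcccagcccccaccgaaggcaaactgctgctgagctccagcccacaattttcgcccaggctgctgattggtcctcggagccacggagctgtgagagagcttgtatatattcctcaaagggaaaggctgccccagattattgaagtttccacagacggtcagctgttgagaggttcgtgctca
This Postn promoter held TATAAA 26 bases before the start site. A second Postn entry of the table, chr3:54359017-54359316, held neither motif and is not printed. The Rgs5 promoter held a GATA core on the minus strand 238 bases before the start site, and the Bgn promoter held neither motif. The 2 motifs do not overlap in these 3 windows. The promoter of Vtn, a gene too low to test, is not printed. It held 2 GATA cores, on the plus strand 248 and on the minus strand 43 bases before the start site. It also held the TATA box letters on the plus strand 135 and on the minus strand 137 bases before the start site. Over all 32851 promoters of the same table, 25.4% held a GATA core and 13.6% held TATAAA. A match is a description of letters, and no binding was measured.

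All 9 genes had at least 1 count in each of the 24 wells, and most were low. Vtn went down to 1 count and Postn to 2, below the floor of 3. Dcn and Bgn had the highest mean levels of the set in each group, and the lowest was Vtn in both groups of experiment 1 and Postn in both groups of experiment 2. The summed level of the 9 genes was 149 ± 7.07 CPM with 30 mM ethanol and 197 ± 23.4 CPM in its controls (SD, n = 6 each). Those groups did not overlap, with ranges of 142 to 160 CPM and 167 to 236 CPM. With 10 mM the sum was 183 ± 17.1 CPM, and in its controls it was 220 ± 22.4 CPM (SD, n = 6 each), with overlapping ranges of 166 to 204 CPM and 187 to 243 CPM. Dcn made up 25.3% of the sum with 30 mM, 32.9% in the controls of experiment 1, 36.8% with 10 mM and 39.7% in the controls of experiment 2. No test was made on the sum, because the genes were chosen with earlier results of these wells known. The same limit holds for the p-values of single members and listed genes below. They describe these wells and are no independent support.

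**Figure D1:**
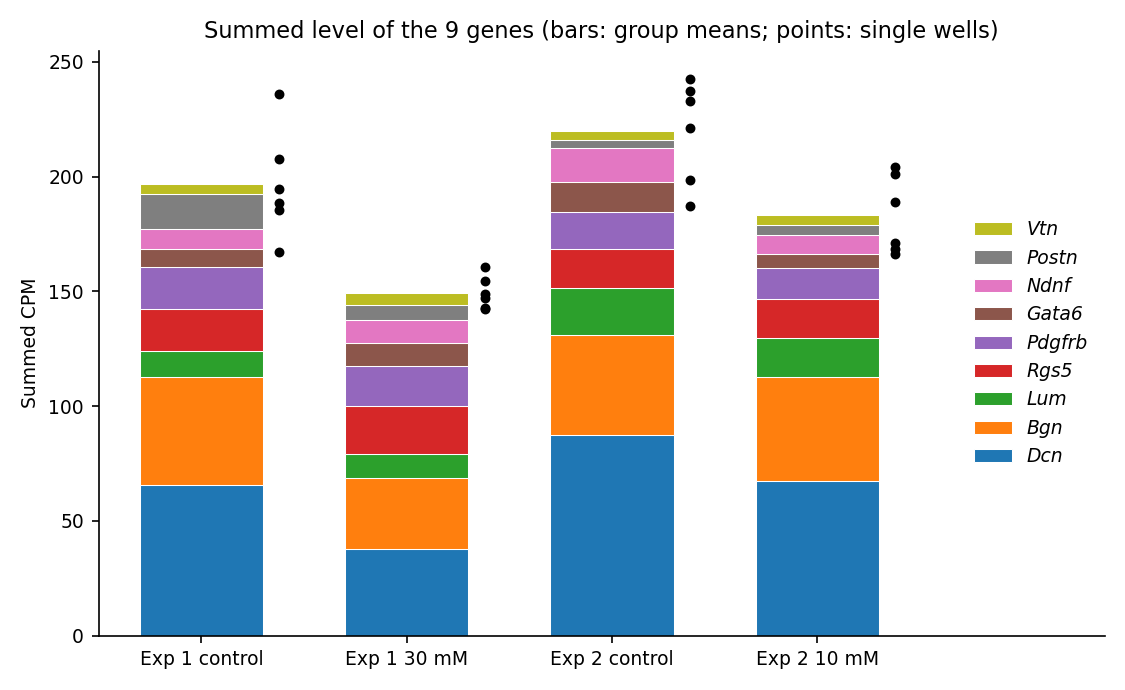
Summed level of the 9 genes in CPM (y axis) for the 4 groups, with bars stacked from the group means of each gene and points for single wells. The 30 mM wells sit between 142 and 160 CPM, below all 6 of their controls, and the 10 mM wells overlap theirs.

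**Figure D2:**
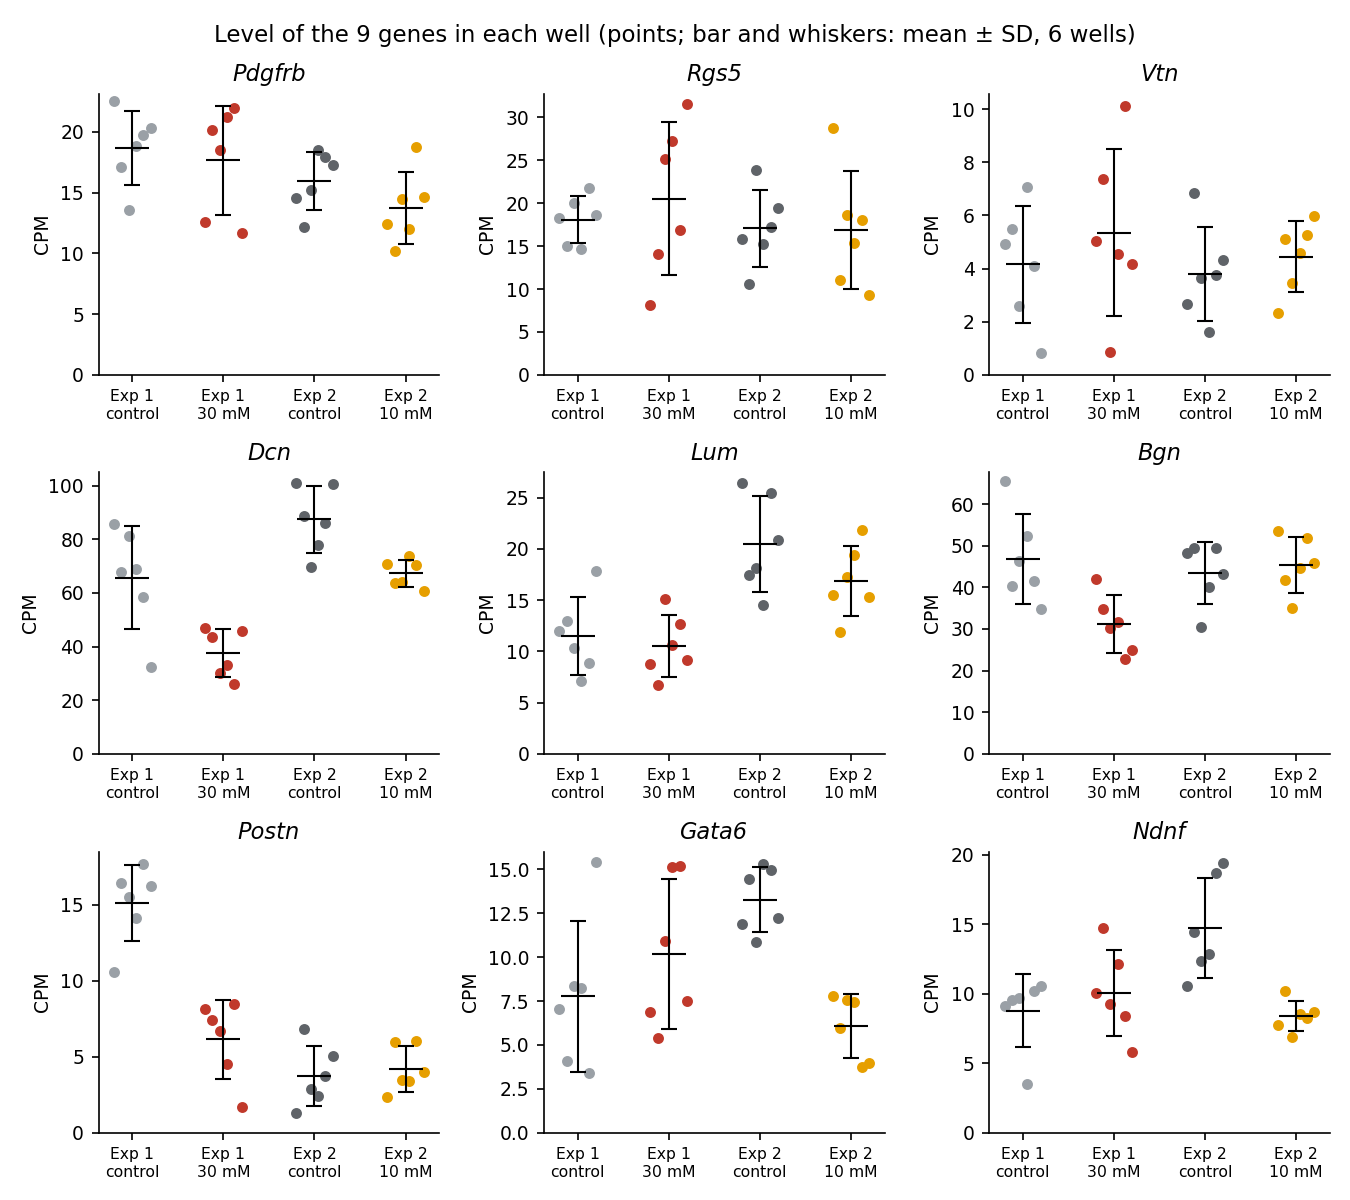
Level of each gene in CPM (y axis, from 0) in each well of the 4 groups, with points for wells and bars with whiskers for the mean and SD of 6 wells. The axes differ between panels. Dcn, Bgn and Postn are lower at 30 mM, and Dcn is also lower at 10 mM. Gata6 and Ndnf are lower at 10 mM, the comparison that chose them.

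With 30 mM ethanol, Dcn and Bgn fell, and Pdgfrb, Lum, Rgs5, Gata6 and Ndnf did not pass the test. The test was edgeR's quasi-likelihood test with Benjamini-Hochberg adjustment over all 13235 genes tested and a threshold of 0.05. Postn was lower too, but it passed the filter on low counts through the controls alone and is not counted with Dcn and Bgn. In the same comparison 9.67% of all tested genes were called, 3.02% as higher and 6.65% as lower. The split between higher and lower calls was 400 and 880, and 551 and 697 with upper-quartile scaling. The median log2 fold change over all genes tested was 0.02. Vtn was too low to test.

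Decorin is a small proteoglycan that binds collagen and growth factors. With 30 mM, Dcn ran from 26.1 to 47.1 CPM with a median of 38.5, and in the controls from 32.4 to 85.9 CPM with a median of 68.2. The groups overlapped only through control replicate 6, at 32.4 CPM, since the other 5 controls lay at 58.4 CPM or above. The mean went from 65.7 ± 19.1 to 37.7 ± 8.91 CPM (SD, n = 6 each), and the fitted log2 fold change was -0.79 ± 0.148 (SE; edgeR adjusted p = 2.03e-04). Without control replicate 6 the change was -0.92.

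Biglycan is the proteoglycan closest to decorin in build. With 30 mM, Bgn ran from 22.8 to 42.1 CPM with a median of 31.0, and in the controls from 34.9 to 65.5 CPM with a median of 43.9. The ethanol wells of replicates 1 and 2 reached into the range of the controls, and the other 4 lay below it. The mean went from 46.8 ± 10.9 to 31.1 ± 6.96 CPM (SD, n = 6 each), and the fitted log2 fold change was -0.57 ± 0.143 (SE; edgeR adjusted p = 0.00644). Lumican, the other proteoglycan of the set, ran from 6.71 to 15.1 CPM with 30 mM and from 7.05 to 17.8 CPM in the controls. The Lum groups overlapped almost fully, and the log2 fold change was -0.13 with a 95% interval from -0.65 to 0.40 (edgeR adjusted p = 0.819).

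Periostin is secreted by fibroblasts and supports cell adhesion to matrix. Postn ran from 1.66 to 8.43 CPM with 30 mM, with a median of 7.05, and from 10.6 to 17.7 CPM in the controls, with a median of 15.9. No ethanol well reached the lowest control; groups without overlap made up 4.17% of genes tested in this comparison, with 3.09% lower and 1.08% higher in all ethanol wells. The mean went from 15.1 ± 2.50 to 6.15 ± 2.60 CPM (SD, n = 6 each), and the fitted log2 fold change was -1.26 ± 0.267 (SE). The counts behind this were 2 to 13 per ethanol well and 15 to 26 per control well. Since Postn passed the filter only where it was high, no p is read from that fit. In the fit with no filter on low counts the log2 fold change was -1.28 (edgeR adjusted p = 2.60e-04).

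Pdgfrb and Rgs5 did not pass the test at 30 mM. Pdgfrb ran from 11.7 to 21.9 CPM with ethanol and from 13.5 to 22.5 CPM in the controls, with a median of 19.3 in both groups. The Pdgfrb groups overlapped, and the log2 fold change was -0.08 with a 95% interval from -0.46 to 0.31 (edgeR adjusted p = 0.852). Rgs5, which dampens signalling by G protein-coupled receptors in pericytes and smooth muscle, ran from 8.16 to 31.6 CPM with ethanol and from 14.7 to 21.7 CPM in the controls. The ethanol wells of Rgs5 spread on both sides of the controls, and the log2 fold change was 0.15 with a 95% interval from -0.29 to 0.60 (edgeR adjusted p = 0.715). Vtn, which encodes the adhesive glycoprotein vitronectin, had means of 5.34 ± 3.14 CPM with ethanol and 4.15 ± 2.21 CPM in the controls (SD, n = 6 each). Its counts were 1 to 12 per well over the 24 wells. With no filter, its log2 fold change was 0.30 with a 95% interval from -0.45 to 1.05, a width that shows how little these counts could resolve.

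Gata6 and Ndnf were tested at 30 mM with wells other than those that chose them. Gata6 ran from 5.37 to 15.2 CPM with 30 mM, with a median of 9.20, and from 3.40 to 15.4 CPM in the controls, with a median of 7.63. The groups overlapped fully, and the log2 fold change was 0.39 with a 95% interval from -0.25 to 1.02 (edgeR adjusted p = 0.484). The highest control was replicate 6, the well with the lowest Dcn, and without it the Gata6 change was 0.67 (edgeR adjusted p = 0.183). Ndnf ran from 5.83 to 14.8 CPM with ethanol and from 3.53 to 10.5 CPM in the controls. The Ndnf groups overlapped, and its log2 fold change was 0.24 with a 95% interval from -0.32 to 0.79 (edgeR adjusted p = 0.649).

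Other genes of the same families and pathways were read from 16 lists of genes and cell type markers. Of 23 fibroblast matrix genes tested, 14 fell and 0 rose at 30 mM, with a median log2 fold change of -0.49. Among them Col1a2, which encodes a chain of type I collagen, went from 159 ± 21.8 to 80.9 ± 12.1 CPM (SD, n = 6 each; log2 fold change -0.97, edgeR adjusted p = 2.32e-10). Fn1, which encodes fibronectin, went from 107 ± 28.5 to 50.7 ± 6.93 CPM (log2 fold change -1.07, edgeR adjusted p = 4.97e-08). Over the other settings tried, including the leaving out of each well, between 12 and 15 of the list were called lower. Of 5 other small leucine-rich proteoglycan genes tested, Fmod (-0.71) and Ogn (-0.55), which encode fibromodulin and osteoglycin, fell, and Podn (0.65), which encodes podocan, rose (edgeR adjusted p = 5.48e-05, 0.00423 and 0.0422). The Podn call was lost in 12 of 18 other settings, with adjusted p up to 0.111, among them the fits without any 1 of 30 mM replicates 1, 2, 3 and 6 and control replicates 2 to 6.

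Of 8 other pericyte genes tested at 30 mM, 0 were called, with a median log2 fold change of 0.03. Of 5 genes for other PDGF ligands and receptors, 0 were called, with a median of -0.20. The R4 family of RGS proteins had 1 lower gene of 4, Rgs16 (-0.65, edgeR adjusted p = 0.00862). The integrin receptors for vitronectin and periostin had 1 lower gene of 7, Itgb1 (-0.26, edgeR adjusted p = 0.00776). The TGF-beta list had 1 higher and 1 lower gene of 11. The higher was the inhibitor Smad7 (0.43, edgeR adjusted p = 0.0425), whose call was lost in 10 of 18 other settings, among them the fits without any 1 of 30 mM replicates 3 to 6 and control replicates 1 to 4. Of the other GATA factors and their FOG cofactors, 3 were tested and 0 called.

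Markers of other cell types moved in the same wells. Of 6 smooth muscle genes tested at 30 mM, 5 fell and 0 rose, with a median of -1.64, led by Cnn1 (-1.91) and Myl9 (-1.54). Among them Tpm2, down to 4.16 CPM with ethanol, needed control wells to pass the filter on low counts. The 8 smooth muscle genes summed to between 237 and 406 CPM with ethanol and between 812 and 1038 CPM in the controls, with none at 0 throughout. The 28 fibroblast matrix genes summed to between 3245 and 3591 CPM with ethanol and between 3844 and 4607 CPM in the controls. Of that sum Sparc, a matrix protein gene that glial cells also express, made up 63.1% with ethanol and 59.6% in the controls. Oligodendrocyte markers rose in 7 of 8 genes, with sums of 9491 to 16181 CPM with ethanol and 7449 to 9092 CPM in the controls, and astrocyte markers rose in 5 of 7, with sums of 5195 to 6598 CPM and 3738 to 4666 CPM. The 17 pericyte genes summed to between 207 and 247 CPM with ethanol and between 200 and 243 CPM in the controls. Cspg4, which is also in the list of oligodendrocyte precursor genes, made up 12.8% of the pericyte sum with ethanol and 13.6% in the controls. The part of these marker levels in the lower Dcn, Bgn and Postn was not tested.

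**Figure D3:**
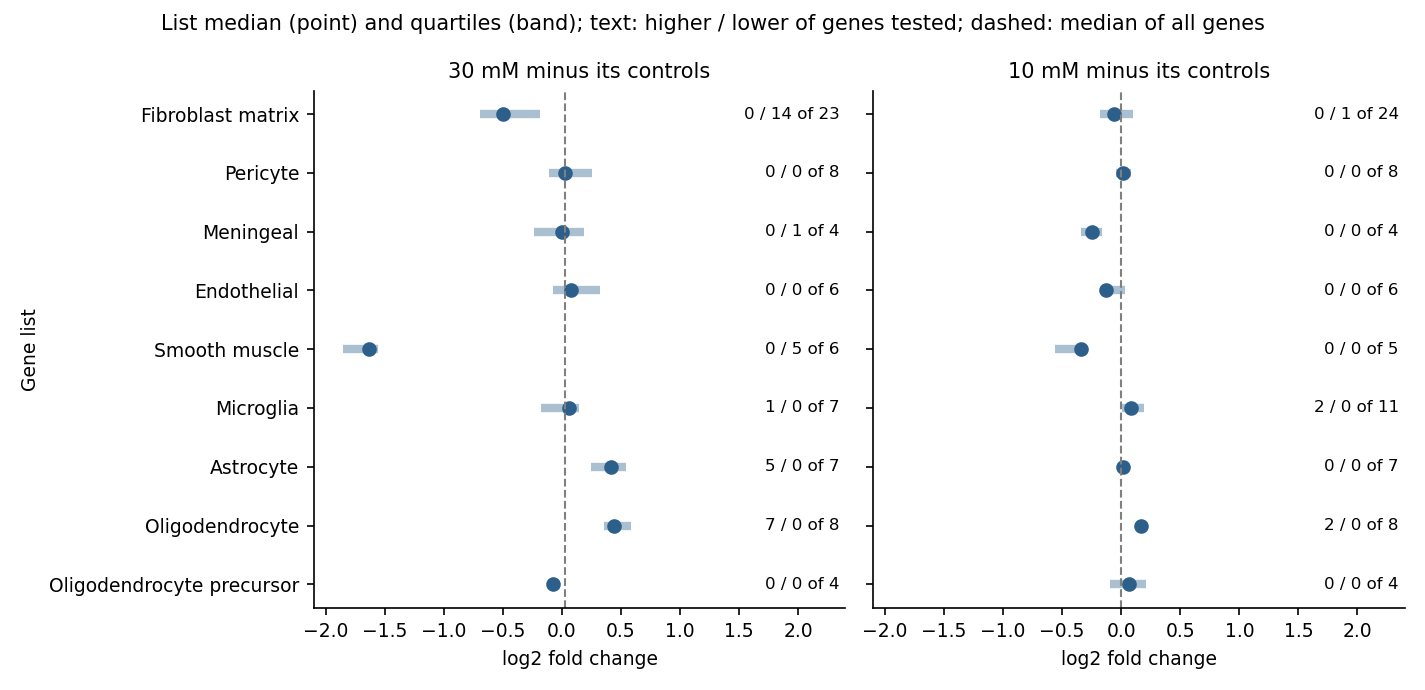
Log2 fold changes (x axis) of the fibroblast and cell type lists (y axis) at 30 mM and 10 mM, with points for list medians, bands for quartiles, text for the genes higher and lower of those tested, and a dashed line for the median of all genes. The fibroblast matrix list (0 higher and 14 lower of 23) and the smooth muscle list (0 and 5 of 6) lie to the left at 30 mM, and the pericyte list lies near the dashed line at both doses.

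With 10 mM ethanol, Dcn fell and the other 4 genes whose test is read did not pass. All-gene calls were fewer here, at 0.657% of 13538 genes tested, with 0.391% higher and 0.266% lower. That split was 53 and 36, and 49 and 45 with upper-quartile scaling. Vtn and Postn were too low to test. Gata6 and Ndnf were chosen from this comparison, so their values are described with no test.

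Dcn ran from 60.6 to 73.7 CPM with 10 mM, with a median of 67.4, and from 69.6 to 101 CPM in the controls, with a median of 87.4. The groups overlapped through 1 control well, replicate 3 at 69.6 CPM, which lay below 3 of the ethanol wells. The mean went from 87.4 ± 12.5 to 67.3 ± 5.09 CPM (SD, n = 6 each), and the fitted log2 fold change was -0.39 ± 0.0901 (SE; edgeR adjusted p = 0.0184). The call was lost without 10 mM replicate 2 (edgeR adjusted p = 0.0573), control replicate 1 (0.0844) or control replicate 6 (0.0986), and in a fit of all 24 wells (0.205). Bgn ran from 35.2 to 53.6 CPM with ethanol and from 30.5 to 49.4 CPM in the controls, and the groups overlapped. Its log2 fold change was 0.05 with a 95% interval from -0.18 to 0.28 (edgeR adjusted p = 0.935).

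Lum ran from 11.9 to 21.8 CPM with 10 mM and from 14.5 to 26.5 CPM in the controls, with a log2 fold change of -0.28 and a 95% interval from -0.63 to 0.06 (edgeR adjusted p = 0.607). Pdgfrb ran from 10.2 to 18.8 CPM and from 12.2 to 18.5 CPM, with a log2 fold change of -0.22 and a 95% interval from -0.59 to 0.16 (edgeR adjusted p = 0.766). Rgs5 ran from 9.32 to 28.7 CPM and from 10.6 to 23.9 CPM, with a log2 fold change of -0.04 and a 95% interval from -0.43 to 0.35 (edgeR adjusted p = 0.969). All 3 genes overlapped between the groups. Postn had means of 4.20 ± 1.49 CPM with ethanol and 3.71 ± 1.98 CPM in the controls (SD, n = 6 each), from 2 to 9 counts per well. With no filter, the Postn log2 fold change was 0.18 with a 95% interval from -0.58 to 0.94, and that of Vtn was 0.25 with a 95% interval from -0.49 to 0.98.

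Gata6 ran from 3.76 to 7.77 CPM with 10 mM, with a median of 6.69, and from 10.9 to 15.3 CPM in the controls, with a median of 13.3. No ethanol well reached the lowest control; 0.805% of genes tested had groups without overlap, with 0.303% lower and 0.502% higher in all ethanol wells. Nothing is read from those shares, since this comparison chose the gene. The means were 6.08 ± 1.83 and 13.3 ± 1.84 CPM (SD, n = 6 each), and the fitted log2 fold change was -1.11. The counts were 5 to 13 per ethanol well and 15 to 20 per control well. Ndnf ran from 6.89 to 10.2 CPM with ethanol, with a median of 8.41, and from 10.6 to 19.4 CPM in the controls, with a median of 13.6. These groups did not overlap either, and the fitted log2 fold change was -0.82. Both genes were chosen by how low they lay at 10 mM, so a lower value there is how they came to be listed. Gata3, the GATA factor with the highest level of the other 5 in the list, had means of 51.4 ± 8.83 CPM with 10 mM and 63.3 ± 4.74 CPM in the controls (SD, n = 6 each). It was not called: of that list 2 genes were tested at 10 mM and 0 passed.

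Of 24 fibroblast matrix genes tested at 10 mM, 1 fell and 0 rose, with a median log2 fold change of -0.06. That gene was Col3a1, which encodes type III collagen (96.4 ± 20.9 to 74.5 ± 2.22 CPM, SD, n = 6 each; edgeR adjusted p = 0.0291). Its call was lost in 7 of 18 other settings, the fit of all 24 wells and those without any 1 of 10 mM replicates 2, 4 and 5 and control replicates 2, 5 and 6. The pericyte, PDGF, R4 RGS, integrin, GATA and other proteoglycan lists had 0 calls by edgeR, and the TGF-beta list had 1 lower gene of 11, the receptor gene Tgfbr1 (-0.40, edgeR adjusted p = 0.0416). The Tgfbr1 call was lost in 14 of the 17 other settings that gave an adjusted p, among them 11 of the 12 fits without 1 well, all but the one without 10 mM replicate 3. The fibroblast matrix sum was 2548 to 2833 CPM with 10 mM and 2572 to 2978 CPM in the controls, and the smooth muscle sum was 101 to 173 CPM and 137 to 177 CPM. The pericyte sum was 246 to 271 CPM with ethanol and 210 to 262 CPM in the controls. Of it Cspg4, shared with the oligodendrocyte precursor list, made up 22.6% with ethanol and 20.4% in the controls. The part of these levels in the Dcn result was not tested.

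**Figure D4:**
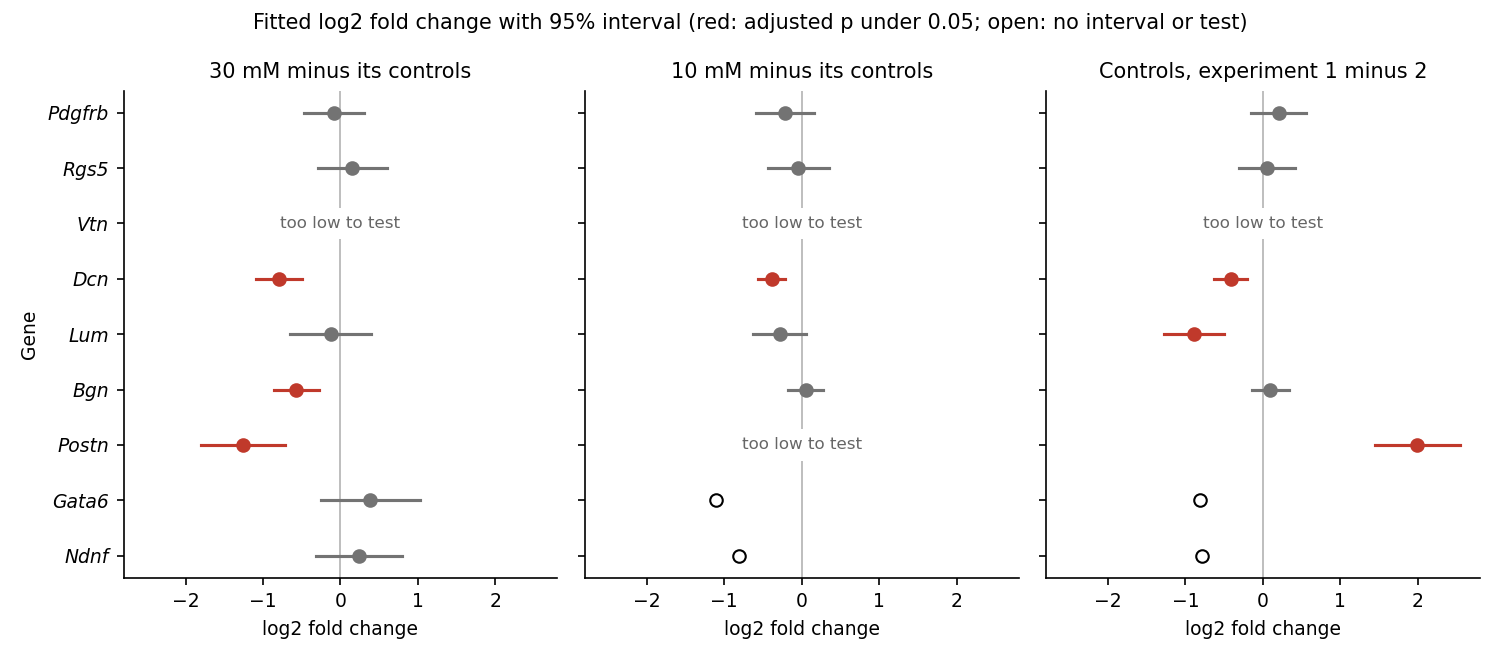
Fitted log2 fold change (x axis) of the 9 genes (y axis) in the comparisons, with 95% intervals as lines, filled red points for adjusted p under 0.05 and open circles for Gata6 and Ndnf where no test is read. Dcn, Bgn and Postn are red at 30 mM, where Postn passed the filter through the controls alone. Dcn is the 1 red point at 10 mM, and Vtn is marked as too low to test. Postn is also red between the controls, where it passed the filter only through experiment 1. No p is read from either of these Postn fits.

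The changes at the 2 doses were compared as a difference of log2 fold changes, 30 mM minus 10 mM, fitted over the 24 wells, with dose and experiment together. Of 14655 genes tested, 3.28% were called, 0.88% with a more positive and 2.4% with a more negative change at 30 mM. That split was 129 and 352, and 222 and 203 with upper-quartile scaling. Among Dcn, Lum, Bgn, Pdgfrb and Rgs5, Bgn alone was called, with a difference of -0.63 (SE 0.190, 95% interval from -1.01 to -0.25, edgeR adjusted p = 0.0463). The Bgn call was close to the threshold: it was lost with upper-quartile scaling (edgeR adjusted p = 0.0836) and in 14 of the 24 fits without 1 well, those without 30 mM replicates 3, 4, 5 and 6, control replicates 1, 3 and 4 of experiment 1, 10 mM replicates 1, 4, 5 and 6, and control replicates 3, 4 and 6 of experiment 2.

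Dcn did not pass for the difference (-0.42, SE 0.178, edgeR adjusted p = 0.193), so its call at both doses was not shown to differ in size. Without control replicate 6 of experiment 1 that difference was -0.55 (edgeR adjusted p = 0.0279). Postn, whose counts are high only in the controls of experiment 1, had a difference of -1.48 in the fit with no filter on low counts (edgeR adjusted p = 0.102). Pdgfrb, Lum and Rgs5 had differences of 0.13, 0.15 and 0.18 (edgeR adjusted p from 0.808 to 0.848). The fitted differences were 1.49 for Gata6 and 1.05 for Ndnf, given with no test because the 10 mM wells that chose them enter the difference. Of the lists, 5 of 24 fibroblast matrix genes and 4 of 6 smooth muscle genes were called with a more negative change at 30 mM, and 0 of either with a more positive one. In the smooth muscle list, Tagln and Tpm2 had control means of 61.0 and 36.7 CPM in experiment 1 but 7.51 and 11.4 CPM in experiment 2. The smooth muscle share may therefore be partly set by the filter on low counts, and nothing is read from it.

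Control wells of the 2 experiments differed in many genes, with 43.6% of 13479 tested called, 21.3% as higher and 22.3% as lower in experiment 1. That split was 2873 and 3007, and 2327 and 3593 with upper-quartile scaling. In the controls, Postn was at 15.1 ± 2.50 CPM in experiment 1 and 3.71 ± 1.98 CPM in experiment 2 (SD, n = 6 each). The groups did not overlap, which held for 18.9% of genes tested (10.6% higher and 8.27% lower in experiment 1), and the log2 fold change was 1.99 ± 0.275 (SE). Postn passed the filter here only through experiment 1, where it is high, so the p is taken from the fit with no filter (log2 fold change 2.04, edgeR adjusted p = 1.45e-11). With 30 mM ethanol Postn was at 6.15 CPM, between the 2 control groups. Lum was lower in the controls of experiment 1 (11.5 ± 3.77 against 20.5 ± 4.71 CPM, log2 fold change -0.89, edgeR adjusted p = 1.35e-04), and so was Dcn (65.7 ± 19.1 against 87.4 ± 12.5 CPM, -0.42, edgeR adjusted p = 9.7e-04). The Dcn call was lost with DESeq2 (adjusted p = 0.0755). Pdgfrb, Rgs5 and Bgn did not pass (log2 fold changes 0.20, 0.05 and 0.10).

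Gata6 had means of 7.76 ± 4.29 and 13.3 ± 1.84 CPM in the controls of experiments 1 and 2 (SD, n = 6 each), and Ndnf had means of 8.78 ± 2.62 and 14.7 ± 3.59 CPM. Those controls of experiment 2 are the wells against which both genes were chosen, so no test is given. Gata6 at 10 mM (3.76 to 7.77 CPM) lay inside the range of the controls of experiment 1 (3.40 to 15.4 CPM), and so did Ndnf at 10 mM (6.89 to 10.2 CPM, against 3.53 to 10.5 CPM). For Ndnf the lower end of that range is 1 well, replicate 4, and the other 5 controls lay between 9.15 and 10.5 CPM, above all 10 mM wells except replicate 2. In order of mean Gata6 level, the groups ran from 10 mM through the controls of experiment 1 and 30 mM to the controls of experiment 2, with overlap between each neighbouring pair. Cell type lists differed between the same controls: 11 of 11 microglia genes tested were lower in experiment 1, with sums of 209 to 347 CPM beside 2430 to 2887 CPM, and 6 of 6 smooth muscle genes were higher, with sums of 812 to 1038 CPM beside 137 to 177 CPM. Aif1, Cx3cr1, Tmem119, Fcrls and Itgam, with means from 3.46 to 5.64 CPM in experiment 1, needed wells of experiment 2 to pass the filter. Tagln and Tpm2, with means of 7.51 and 11.4 CPM in experiment 2, needed wells of experiment 1. Both shares are therefore partly set by the filter, and nothing is read from these genes. Of 24 fibroblast matrix genes, 13 were higher and 5 lower. Among the GATA list, Gata3 was lower in experiment 1 (33.9 ± 6.06 against 63.3 ± 4.74 CPM, edgeR adjusted p = 3.32e-11). The part of these lists in the differences of Postn, Lum and Dcn was not tested.

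Within groups the 9 genes did not vary as a block. Over the 36 pairs of the set, the Pearson r of deviations from the group means over 24 wells had a median of -0.02 and ran from -0.53 to 0.65, with 17 pairs positive. The highest was Dcn with Bgn (0.65), the lowest Rgs5 with Postn (-0.53), and Dcn with Gata6 lay at -0.50. Wells share library depth and scaling, the counts of most of these genes are sparse, and the values are descriptions. Control replicate 6 of experiment 1 had the lowest Dcn and Bgn and the highest Gata6 and Lum of its group. The spread of Dcn between the controls of experiment 1 was 7.22 times the variance that counting alone gives, and that of Rgs5 with 30 mM was 5.56 times. That of Gata6 in the controls of experiment 2 was 0.345 times and that of Ndnf with 10 mM was 0.188 times. Both genes were chosen by the 10 mM comparison, which can favour genes with little spread in its wells, so nothing is read from their low values.

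**Figure D5:**
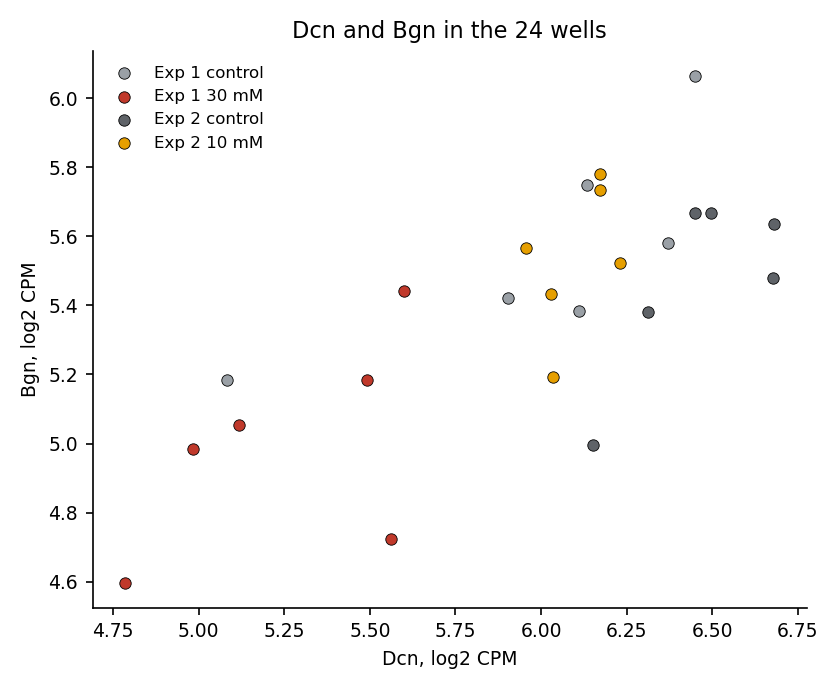
Level of Bgn (y axis) against Dcn (x axis) in each of the 24 wells, both in log2 CPM, with the 4 groups in different colours. The 30 mM wells lie at the lower left together with control replicate 6 of experiment 1, and the deviations from group means had an r of 0.65.

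The genes most like each member were sought among 13838 genes by Pearson r over the 24 wells after subtracting the mean of each experiment. That leaves the difference between ethanol and control wells in each r, so a shared shift with ethanol can raise it. For Gata6 and Ndnf, r therefore reuses the comparison that chose them. The matches were picked as the highest r of 13838 genes, and the height that chance alone gives was not estimated. They are descriptions, and nothing further is read from them. The closest to Gata6 were Adra1a (0.82), Otx2os1 (0.74) and Kctd14 (0.72). The closest to Postn were Csrp2 (0.80), Mnat1 (0.79) and Col4a2 (0.79), the last a chain of the basement membrane collagen. The closest to Dcn were Dhrs1 (0.79), Ndufs8 (0.79) and Vxn (0.78), and to Bgn they were Saa3 (0.83), Yipf4 (0.82) and Cct8 (0.80). For Lum, Rgs5, Pdgfrb and Ndnf the highest r belonged to Slc39a4 (0.81), Gm38071 (0.82), Fignl1 (0.72) and Gm33103 (0.72). No member was among the 3 genes closest to another.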

How the data were processed

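Raw counts per gene for 24 wells were deposited by the authors. Per the submitters' processing notes, reads were handled with cutadapt 1.18 and STAR on GRCm39; the counter, annotation release, use of strand and removal of duplicates are not given in the sources used here. Overlapping and antisense genes therefore cannot be told apart. Symbols were matched by Ensembl identifier for 52083 identifiers (94.1%). Every column was mapped to a well by its description.

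Counts were filtered with filterByExpr (minimum 10), scaled by TMM and tested with edgeR 4.0.16 in R 4.3.3, each dose with its own controls. The dose difference was an interaction over 24 wells. P-values were adjusted over all genes tested. Each fit was also run on counts simulated with set changes. The simulation held no effect of incubator or of the origin of the wells, so it does not bear on those limits. A member was too low to test where it failed the filter. Log2 CPM used a prior count of 2. DESeq2 1.42.0, other scalings, no filter, a fit of all wells, a replicate block and leaving out each well were alternatives.

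The 9 genes and the lists were chosen with earlier results of these data known. Gata6 and Ndnf are given with no test where the 10 mM comparison or its wells enter. Named beside the 9 genes were, per list and comparison, up to 2 higher and 2 lower called genes with the smallest p whose log2 CPM averaged 3 or more, and the 3 genes most like each member. Gata3 at 10 mM, and Higd1b, Kcnj8, Cldn5, Pecam1, Sparc and Cspg4 as markers, were named outside that rule after their values were seen. Promoters came from RefSeq, GRCm38.p6, and gene coordinates are not used here because the reference annotation is of another build. A result of the TGF-beta list at 30 mM is not reported here.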

Additional observations from a re-analysis of the deposited data

Results flagged for a closer look

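In the controls of experiment 1, replicate 4 had 3.53 CPM of Ndnf, far below the other 5 wells at 9.15 to 10.5 CPM. Of 40 series of 6 wells examined this way, 1 stood out, and chance gives 2. Without that well the log2 fold change of Ndnf at 30 mM was 0.05 in place of 0.24.

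The change of Bgn passed the test for a difference between the experiments, with a difference of log2 fold changes of -0.63 (30 mM minus 10 mM, edgeR adjusted p = 0.0463 for the interaction). The call was lost in 14 of the 24 fits without 1 well and with upper-quartile scaling, with adjusted p up to 0.112, and the dose cannot be told apart from the experiment.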

How the results depend on the processing

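Of 635 alternative values of the members' log2 fold changes, 598 were marked as the same, 20 lost the call, 4 gained one and 13 changed sign. The same meant the same direction and side of the threshold. For Gata6 and Ndnf where no test is given, it meant the same direction and a shift below the SD between wells, with no threshold read. Where no cause is named, it was not tested. All sign changes were in values that did not pass. With upper-quartile scaling Rgs5 between the controls was -0.00835. Leaving out 1 well gave, at 30 mM, -0.161 to 0.0163 for Pdgfrb, -0.247 to 0.0308 for Lum and -0.00668 to 0.342 for Rgs5; at 10 mM, -0.240 to 0.0927 for Rgs5 and -0.0289 to 0.115 for Bgn; and between the controls, -0.0439 to 0.185 for Rgs5 and -0.00818 to 0.163 for Bgn. Genes called at 10 mM were 89, 21 in the fit of all 24 wells and 37 to 95 with 1 well left out; members called were 0 in that fit and 0 to 1. For the dose difference 481 genes were called, and 329 to 759 with 1 well left out; members called were 0 with upper-quartile scaling and 0 to 2 with 1 well left out. At 30 mM, Dcn and Bgn kept their calls under each setting tried, and DESeq2 gave no adjusted p for Postn. Dcn ran from -0.92 to -0.71, Postn from -1.36 to -1.08 and Bgn from -0.68 to -0.46 with 1 well left out. With the replicate number as a block, 1208, 68, 461 and 5860 genes were called (30 mM, 10 mM, dose difference, controls) and no member's call changed. Same-numbered wells correlated at -0.17 to 0.23 at 30 mM and -0.04 to 0.04 at 10 mM, and 1 and 0 of the 6 numbers correlated best with their own. No clear pairing by number was seen, but these values cannot show whether same-numbered wells shared an isolation. Depth limits Vtn in each comparison and Postn at 10 mM.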
